A study of Mus musculus with 9 samples.

Results

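Aminoacyl-tRNA synthetases join each amino acid to its transfer RNA, and their genes were followed here in mouse pancreatic stellate cells, the fibroblast-like cells of the pancreas, by poly-A RNA sequencing. Members were the protein-coding genes of the GENCODE M21 annotation whose symbols are a capital letter followed by ars, with or without 1 or 2 at the end, together with Farsa, Farsb and Eprs. The genes described number 36 among 49315 gene identifiers. Symbols ending in 2 were taken as the 16 mitochondrial synthetases and the remaining 20 as the cytosolic ones. All 36 had counts, and all 36 passed the filter on low counts. Cells came from C57BL6 mice and had become immortal by spontaneous outgrowth. They carried lentiviral Cas9 with a guide RNA, either R26 sg1, against the Rosa26 locus that serves as a control target, or HIF1a sg2, against Hif1a, and were puromycin-selected pools rather than clones. Each of 3 groups held 3 libraries: R26 normoxia (R26 guide, 20% oxygen), R26 hypoxia (R26 guide, 0.5% oxygen) and HIF1a-ko hypoxia (Hif1a guide, 0.5% oxygen), all after 48 h in medium with serum. No HIF1a-ko cells at 20% oxygen were analysed here, so the oxygen level and the guide cannot be told apart when HIF1a-ko hypoxia is set against R26 normoxia.

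Each synthetase first activates its amino acid with ATP and then transfers it to the matching tRNA. Cytosolic and mitochondrial protein synthesis mostly use separate enzymes from separate nuclear genes, with exceptions: Gars (glycine) and Kars (lysine) each make both forms from 1 gene, and mitochondria make glutaminyl-tRNA by an amidotransferase instead of a glutaminyl-tRNA synthetase. In the cytosol several synthetases are held with scaffold proteins in a multisynthetase complex. When amino acids run short, uncharged tRNA activates the kinase GCN2, eIF2 alpha is phosphorylated and the transcription factor ATF4 is made; many cytosolic synthetase genes are known ATF4 targets. HIF-1, whose oxygen-regulated subunit Hif1a encodes, is the main transcriptional regulator of the hypoxic response.

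Total counts ran from 43837809 to 107840223 per library, and 1 library of each group (R26 normoxia 3, R26 hypoxia 3, HIF1a-ko hypoxia 1) was sequenced more deeply than the other 6. The targeted gene, Hif1a, stood at 194, 192.4 and 224.8 CPM (counts relative to library size, scaled with TMM factors) in the R26 normoxia libraries, 177.8, 168.7 and 207.1 in R26 hypoxia and at 123.3, 116.9 and 125 in HIF1a-ko hypoxia; the log2 fold change was -0.60 ± 0.09 (SE) against R26 hypoxia (adjusted p = 0.000358). Summed over 9 stellate cell and fibroblast markers, the level was 16883.2 to 18432.3 CPM in R26 normoxia, 19397.9 to 20964.3 in R26 hypoxia and 13109.9 to 13584.6 in HIF1a-ko hypoxia. Col1a1, Col1a2 and Vim were the most abundant of the 9, so the sum mostly follows them. Of the 9, 4 were called higher and 1 lower in low oxygen, and 1 higher and 5 lower with the Hif1a guide against R26 hypoxia. Over all genes tested, these shares were 12.8% and 12.4%, then 22% and 23.8%. Mean Acta2 was 1520.5 CPM in R26 normoxia, 786.5 in R26 hypoxia and 1142.6 in HIF1a-ko hypoxia. Mean Pdgfra was 486.3, 687.4 and 212 CPM in the same order. Sums over 5 epithelial markers were 14.1 to 68.6, 42.5 to 103.1 and 12.9 to 58 CPM in the same order, and those over 6 leukocyte markers 12.4 to 58.7, 7.95 to 76.9 and 15.3 to 79.2. Sums over 4 endothelial markers were 6.18 to 10.8, 4.5 to 10.3 and 5.37 to 13.1, those over 6 acinar and islet markers 9.86 to 14, 9.9 to 12.2 and 4.29 to 6.9, with Ins1 and Ins2 at 0 in all 9 libraries, and those over 3 fat cell markers 0.045 to 31.9, 0.0378 to 37.9 and 0.0729 to 22.2. Krt8, Igha and Adipoq were at or near 0 in the 3 deeper libraries and above 6 CPM in the other 6. Of these 24 markers of other cell types 19 were tested. Called higher and lower were 1 and 1 in low oxygen, and 1 and 4 with the Hif1a guide against R26 hypoxia. None of these counts exceeds the shares over all genes (12.8% and 12.4%, then 22% and 23.8%), so they are no result about other cell types. In low oxygen Krt19 rose (1.52 ± 0.33) and Vwf fell (-0.68 ± 0.20). With the Hif1a guide against R26 hypoxia Kdr rose (1.17 ± 0.37), while Krt19 (-1.62 ± 0.33), Cela1 (-1.22 ± 0.12), Cd79a (-0.88 ± 0.23) and Vwf (-0.71 ± 0.20) fell. The part of these cells in the synthetase values was not tested. Between deeper and shallower libraries 1 of 20 cytosolic synthetases was higher and 3 were lower, with log2 differences of -0.14 to 0.14, and 1 of 16 mitochondrial ones was higher and 0 lower, with differences of -1.21 (Lars2, not called) to 0.21; over all genes 12.3% were higher and 15.1% lower. In bulk RNA, fewer cells of a type and less RNA per cell cannot be told apart.

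Per length of exon, cytosolic synthetase mRNAs were for the most part more abundant than mitochondrial ones, with Lars2 (leucine) as an exception at 29.5 CPM per kb of exons in R26 normoxia. That mean is set by R26 normoxia 1, the 3 libraries being at 69.1, 12.2 and 7.25. In R26 normoxia the highest mean levels were those of Nars (asparagine; 69.4 CPM per kb of exons), Gars (49.5), Sars (serine; 41.2) and Kars (37.9), and the lowest those of Mars2 (methionine; 0.728), Nars2 (0.864) and Ears2 (glutamate; 1.42). The lowest cytosolic genes, Cars (cysteine; 9.47), Farsb (10.0) and Yars (tyrosine; 10.3), lay next to the upper mitochondrial genes Hars2 (histidine; 9.3) and Iars2 (isoleucine; 9.11). Nars was also the most abundant member in R26 hypoxia (52.5) and in HIF1a-ko hypoxia (132.1). Aars (alanine) stood 11th in R26 normoxia at 23.3 ± 0.837 CPM per kb, 13th in R26 hypoxia at 13.4 ± 1.16 and 6th in HIF1a-ko hypoxia at 54.4 ± 2.82 (SD, n = 3); its level in HIF1a-ko hypoxia lay beside those of Mars (54.6 ± 4.22) and Iars (54.8 ± 3.98), within the spread on this scale. The order depends on the length used. Per kb of the longest coding transcript Aars stood 10th, 15th and 4th, at 87.8 ± 4.56 in HIF1a-ko hypoxia, above Mars (63.1 ± 4.88) and Iars (65.3 ± 4.74) by more than the spread. On that scale Nars was again highest in R26 normoxia (110.1), followed by Lars2 (84), Kars (77.2) and Gars (64.9). The place of Lars2 again rests on R26 normoxia 1, its 3 libraries being at 196.7, 34.7 and 20.6. The lowest cytosolic genes were Farsb (12.9), Wars (14.1) and Vars (16.4).

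Added up, the 20 cytosolic genes reached 501.7, 507 and 481.7 CPM per kb of exons in the R26 normoxia libraries, 433.7, 395.1 and 414 in R26 hypoxia and 797.6, 805.8 and 859.3 in HIF1a-ko hypoxia. The 3 groups did not overlap, with R26 hypoxia lowest and HIF1a-ko hypoxia highest. The mitochondrial genes without Lars2 summed to 50.5, 49.7 and 50.3 in R26 normoxia, 48.5, 47.6 and 50.7 in R26 hypoxia and 57.3, 56.5 and 57.3 in HIF1a-ko hypoxia, so the R26 groups overlapped and the HIF1a-ko libraries lay above both. The ratio of the cytosolic to this mitochondrial sum was 9.9 ± 0.318, 8.47 ± 0.42 and 14.4 ± 0.541 (SD, n = 3) in the 3 groups. With Lars2, which was high in R26 normoxia 1, it was 6.92 ± 2.36, 6.84 ± 0.332 and 11 ± 0.611.

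**Figure D1:**
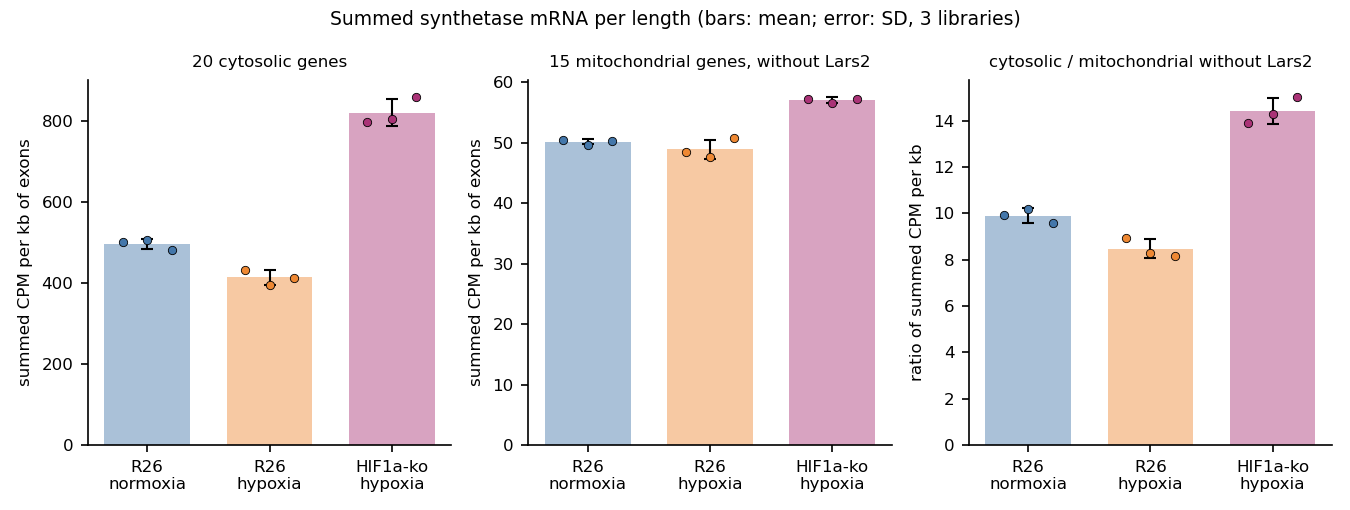
Summed CPM per kb of exons in each library for the 20 cytosolic genes, the 15 mitochondrial genes other than Lars2, and their ratio; bars are means, error bars SD and points the 3 libraries of a group. The mean cytosolic sum is 496.8 in R26 normoxia, 414.3 in R26 hypoxia and 820.9 in HIF1a-ko hypoxia, while the mitochondrial sum lies between 47.6 and 57.3 in every library.

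Promoter sequence was read for the members that RefSeq's GRCm38.p6 table of promoters holds, from 250 bases before to 50 after the annotated start. It matched 27 of the 36 members. Unmatched were Cars, Hars, Lars, Nars, Rars, Vars, Wars, Hars2 and Pars2. TGATGNAA, the composite site that ATF4 binds together with C/EBP proteins, was searched on both strands. It lay in 5 of 13 cytosolic promoters (38.5%) and in 0 of 14 mitochondrial ones, against 4.51% of 27025 genes with such a promoter. All 5 are among the 8 matched members of a list of 13 cytosolic synthetases known as amino acid response genes. That list was drawn from general knowledge, with earlier results of these data known. The hypoxia response core, ACGTG or GCGTG on either strand, was found in 13 of 13 cytosolic and 11 of 14 mitochondrial promoters, against 46.7% of genes. CACGTG, the E-box bound by MYC and MAX, which contains the first of these cores, lay in 4 of 13 and 1 of 14, against 8.09% of genes. A match is a string of letters and not a measured binding site. The genes printed below were picked with their changes in these data known. The 30 bases around the match nearest the start are shown because the genes that hold it belong to the group that changed most, with the match in capitals, 5′ to 3′ on the gene's strand, and the position of its first base counted from the start of transcription:
Aars, chr8:111033840-111033869, plus strand, position 10: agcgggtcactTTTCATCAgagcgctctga
Gars, chr6:55037960-55037989, plus strand, position -30: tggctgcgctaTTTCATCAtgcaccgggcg
Iars, chr13:49682126-49682155, plus strand, position 8: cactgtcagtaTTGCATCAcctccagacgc
Tars, chr15:11399655-11399684, minus strand, position -15: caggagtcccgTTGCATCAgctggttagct
Yars, chr4:129189895-129189924, plus strand, position 4: acgagctcagcTGATGCAAcccgacgggac

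Every match shown but the one in Yars is the reverse complement of the searched string. The 250 bases before the start of Gars (chr6:55037751-55038000, plus strand), which overlap no exon of the annotation, are given as the whole upstream window of a gene that serves both compartments, again with the match in capitals:
Gars upstream: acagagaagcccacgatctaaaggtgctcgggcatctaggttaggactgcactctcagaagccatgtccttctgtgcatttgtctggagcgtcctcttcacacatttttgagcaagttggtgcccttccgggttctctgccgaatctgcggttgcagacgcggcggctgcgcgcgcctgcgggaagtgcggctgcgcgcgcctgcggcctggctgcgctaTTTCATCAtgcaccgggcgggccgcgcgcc

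The first comparison asked how R26 cells at 0.5% oxygen differed from R26 cells at 20%. Cytosolic synthetase mRNAs were mostly lower in low oxygen: 11 of 20 fell, 1 rose and 8 did not pass the test (edgeR quasi-likelihood, adjusted p under 0.05 over 18211 genes). Over all genes tested, 12.4% were called lower and 12.8% higher. The median log2 fold change was -0.25 over the cytosolic genes, 18 of which were below 0, and -0.01 over all genes. Among the 16 mitochondrial genes 1 fell and 0 rose, with a median of -0.06. At an unadjusted p under 0.05 from edgeR Vars2 alone was higher (0.046), and DESeq2 called 0 higher.

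Aars (chr8:111033144-111057664, plus strand) had the largest change among the called synthetase genes. It stood at 219.2, 222.6 and 207.8 CPM in R26 normoxia against 135.6, 114 and 124.4 in R26 hypoxia, and every hypoxic library was below every normoxic one. The log2 fold change was -0.80 ± 0.07 (SE), a ratio of 0.576 (adjusted p = 6.91e-05). The annotated exons of Aars cover 1326 bases of Exosc6 on the same strand, and Exosc6 had 0 counts in all 9 libraries. How reads lying in both genes were counted is not stated, so the 0 cannot show whether Exosc6 was expressed. Rars, the arginine enzyme of the multisynthetase complex (chr11:35808381-35834506), stood at 106, 104.5 and 101.9 CPM against 76.6, 71.7 and 74.3, a log2 fold change of -0.49 ± 0.05 (adjusted p = 0.000131). Its groups were far apart relative to their spread.

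Gars (chr6:55038007-55079500) was at 151.8, 152.4 and 159.1 CPM in R26 normoxia against 117.1, 102 and 120.8 in R26 hypoxia, a log2 fold change of -0.45 ± 0.07 (adjusted p = 0.00142). Tars, the threonine enzyme (chr15:11382301-11399665), was at 129.7, 119.7 and 113.9 against 98.9, 81.2 and 87.8, a change of -0.44 ± 0.08 (adjusted p = 0.00439). Nars (chr18:64499647-64516652) was at 313, 314.1 and 279.7 against 248.2, 213.3 and 224.3, a change of -0.40 ± 0.07 (adjusted p = 0.00415). None of these groups overlapped. Smaller falls were called for Yars (-0.34), Wars (tryptophan; -0.32), Lars (-0.32), Kars (-0.31), Cars (-0.29) and Farsa, the catalytic alpha subunit of the phenylalanine enzyme (-0.21). Kars, the other enzyme of both compartments, was at 169.4, 179.1 and 158.8 CPM in R26 normoxia against 144, 135.6 and 128.8 in R26 hypoxia.

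Dars, the aspartate enzyme of the complex (chr1:128363707-128417368), went the other way: 89.9, 93.9 and 93.6 CPM in R26 normoxia against 105.1, 103.8 and 110.1 in R26 hypoxia, a log2 fold change of 0.20 ± 0.05 (adjusted p = 0.015). The call was lost without R26 normoxia 1 (adjusted p = 0.0652, in a range of 0.000901 to 0.0652 over 16 alternatives). The cytosolic genes that did not pass were Hars (-0.21, adjusted p = 0.0546), Eprs (-0.17), Iars (-0.17), Mars (-0.17), Farsb (-0.10), Sars (-0.07), Vars (valine; -0.03) and Qars (glutamine; 0.10). Eprs, which carries the glutamate and proline activities in a single chain, was at 187.7, 190.3 and 210.1 CPM in R26 normoxia against 170.6, 159.9 and 192.5 in R26 hypoxia, so its groups overlapped. Qars overlapped too, at 174.7, 178.4 and 156.1 against 188.2, 186.6 and 169.5.

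By the known subgroups of cytosolic enzymes, 8 of the 13 amino acid response members fell and 0 rose (median -0.32), and of the other 7, 3 fell and 1 rose (median -0.21). In the multisynthetase complex 3 of 8 fell and 1 rose (median -0.17); outside it 8 of 12 fell and 0 rose (median -0.31). The 9 members with a class I catalytic fold had 5 falls and a median of -0.29, and the 10 of class II had 6 falls, 1 rise and a median of -0.26. Over all genes tested, 12.4% were called lower and 12.8% higher. In subgroups this small, a count near these shares is no result about the subgroup.

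On the mitochondrial side Rars2 (chr4:34614957-34660167) fell; it was at 18.8, 20.2 and 17.3 CPM against 16.6, 15.8 and 15.1, a log2 fold change of -0.25 ± 0.08 (adjusted p = 0.0468). That call was lost in 10 of 16 alternatives, with adjusted p from 0.00566 to 0.168. The uncalled mitochondrial genes other than Lars2 had log2 fold changes of -0.34 (Sars2) to 0.21 (Aars2). They were Aars2, Cars2, Ears2, Fars2, Hars2, Iars2, Mars2, Nars2, Pars2, Sars2, Tars2, Vars2, Wars2 and Yars2. Same-numbered R26 libraries deviated together, as did the shallower ones with different numbers, and with the replicate number as a block 15 cytosolic genes were lower and 2 higher, and 2 mitochondrial genes were lower and 1 higher, while 3843 of 17387 genes tested were higher and 3416 lower. Eprs, Hars, Iars and Mars then joined the lower cytosolic genes and Qars the higher ones; Sars2 was added as lower and Vars2 as higher.

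**Figure D2:**
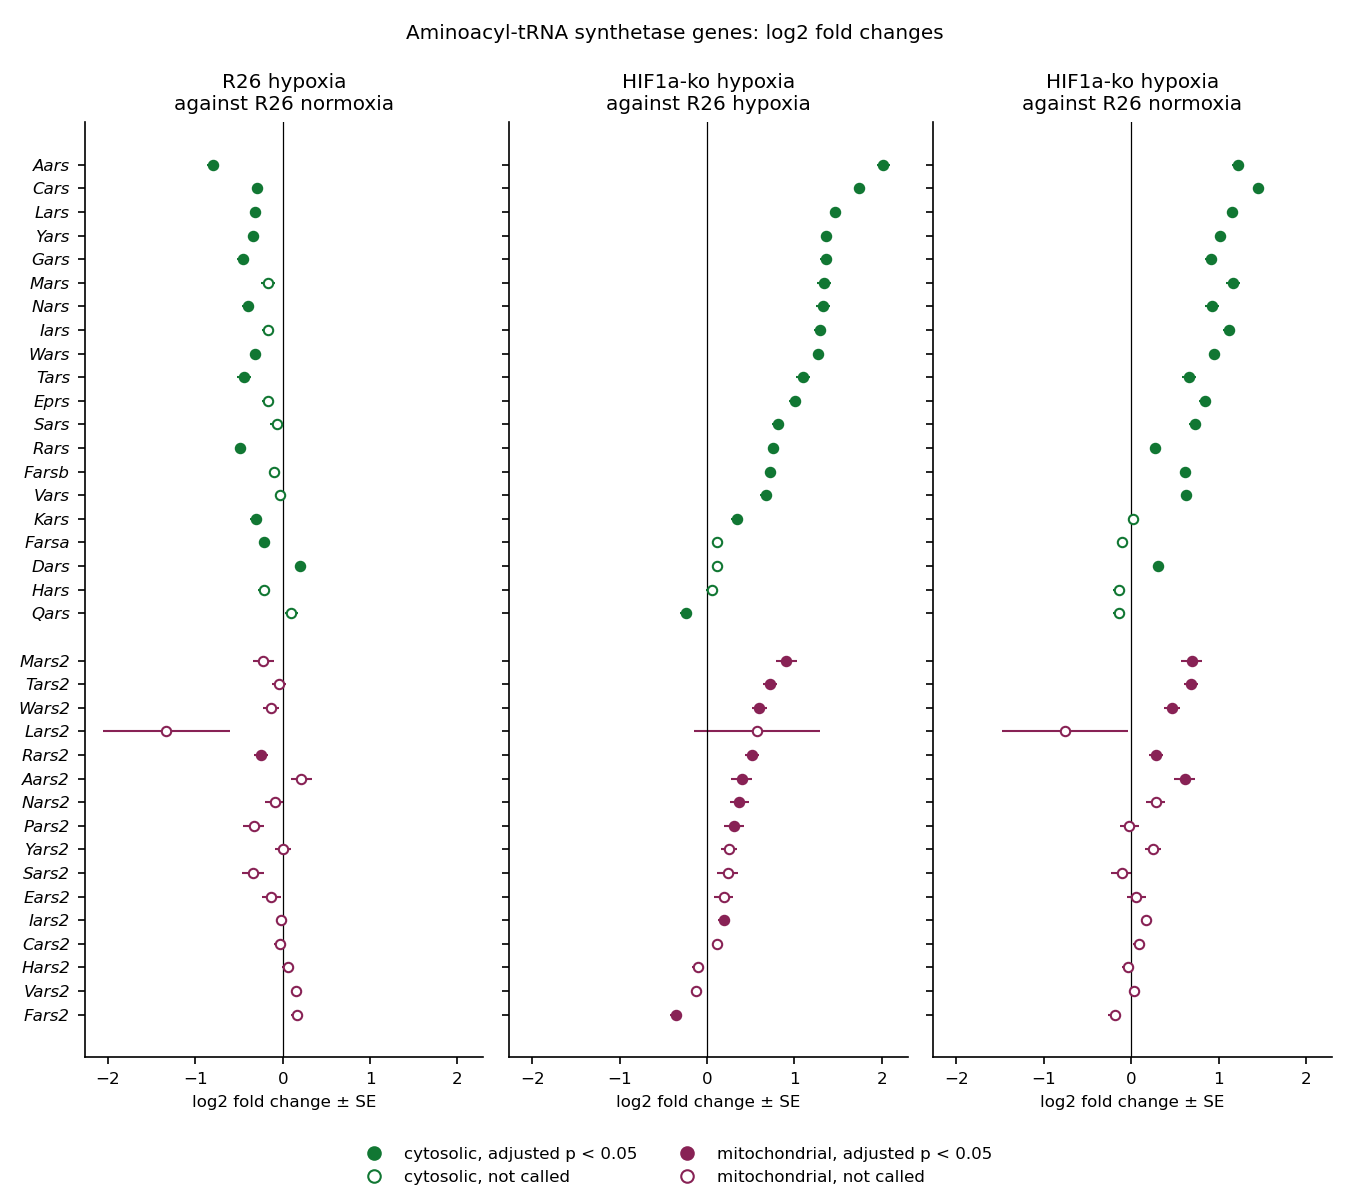
Log2 fold change ± SE of the 36 genes in the 3 comparisons, ordered within each compartment by the middle comparison; filled points passed the test (adjusted p under 0.05). Cytosolic genes lie mostly left of 0 in low oxygen and right of 0 with the Hif1a guide, up to 2.02 for Aars; the wide bars belong to Lars2.

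The second comparison set the Hif1a guide against the R26 guide, both at 0.5% oxygen. Cytosolic synthetase mRNAs were higher with the Hif1a guide: 16 of 20 rose, Qars fell and 3 did not pass, with a median log2 fold change of 1.06. Over all genes tested 22% were called higher and 23.8% lower, with a median of -0.02. Of the 16 mitochondrial genes 8 rose, 1 fell and 7 did not pass, with a median of 0.28. This comparison and the first use the same R26 hypoxia libraries, so low values in those libraries would enter both, with opposite sign.

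Aars stood at 479.6, 503.6 and 531.9 CPM in HIF1a-ko hypoxia, above every library of both R26 groups. Its log2 fold change against R26 hypoxia was 2.02 ± 0.07 (SE), 4.05 times the R26 hypoxia level (adjusted p = 8.56e-08). Cars (chr7:143557230-143600090) was at 52.8, 47.1 and 52.9 CPM in R26 hypoxia and 171.5, 161.3 and 177.2 in HIF1a-ko hypoxia, a log2 fold change of 1.74 ± 0.06 (adjusted p = 6.43e-08). Lars, which is also known as a leucine sensor of the mTORC1 pathway (chr18:42202298-42262194), was at 80.8, 77.3 and 82.8 against 216.9, 214.7 and 233.5, a change of 1.46 ± 0.05 (adjusted p = 5.88e-08). In all 3 genes the lowest HIF1a-ko library was far above the highest R26 library.

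Gars was at 286.4, 279 and 307.5 CPM in HIF1a-ko hypoxia, a log2 fold change of 1.36 ± 0.07 (adjusted p = 4.87e-07). Yars (chr4:129189760-129219607) was at 49.6, 45.9 and 49.8 in R26 hypoxia and 125.7, 119 and 128.5 in HIF1a-ko hypoxia, also 1.36 (SE 0.05, adjusted p = 8.88e-08). Aars, Gars, Yars, Iars and Tars, whose promoter windows are printed above, rose by 2.02, 1.36, 1.36, 1.29 and 1.10. The matched response members without the string in the window, Eprs, Mars and Sars, also passed the test, at 1.01, 1.34 and 0.81. Cars, Lars, Nars, Vars and Wars had no promoter to search and passed at 1.74, 1.46, 1.33, 0.67 and 1.27. Whether the string had a part in these rises was not tested.

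Mars, the methionine enzyme that also charges the initiator tRNA (chr10:127296221-127311786), was at 77.6, 65.5 and 78.6 CPM in R26 hypoxia and 185.1, 173.4 and 202.2 in HIF1a-ko hypoxia. It shares 68 exon bases on the opposite strand with Ddit3, which itself rose by 0.98 ± 0.06, and the strand setting of the counting is not given in the sources used here. Iars (chr13:49682100-49734267) was at 120.9, 108.5 and 124.4 against 284.8, 270.1 and 311.5 CPM. Of its sequence 26.2% is shared with other loci, mainly the processed pseudogene Gm4849, which was counted at most at 0.114 CPM. The treatment of reads with several matches is not stated, so this low count cannot show what the pseudogene adds. Eprs (chr1:185363044-185428360) reached 358.3, 341.7 and 356.4 CPM, a log2 fold change of 1.01 ± 0.07, and the groups were far apart.

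Wars (chr12:108860030-108894174), a gene also induced by interferon, was at 32.5, 32 and 31.6 CPM in R26 hypoxia and 81.1, 75 and 76 in HIF1a-ko hypoxia, a log2 fold change of 1.27 ± 0.05 (adjusted p = 1.8e-07). The interferon-induced gene Ifit1 split the R26 hypoxia libraries, at 71.7, 8.16 and 8.22 CPM, and stood at 8.68, 11.3 and 10.1 in HIF1a-ko hypoxia. In Wars, R26 hypoxia 1 lay within 1 CPM of the other 2 libraries. Whether interferon had a part in the Wars values was not tested. Of 10 interferon response genes 0 rose and 2 fell, where 22% of all genes tested were called higher and 23.8% lower.

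The other cytosolic rises were those of Nars (1.33 ± 0.08, to 540.4, 572.9 and 612.4 CPM), Tars (1.10 ± 0.08, to 182.9, 186.1 and 206.9 CPM), Sars (0.81), Rars (0.76 ± 0.05, to 120, 124.5 and 132.7 CPM), Vars (0.67) and Kars (0.34). Kars was at 166.4, 176 and 173 CPM in HIF1a-ko hypoxia, within the range of R26 normoxia. Gars and Kars, each the sole source of its enzyme for both compartments, were at 1.36 ± 0.07 and 0.34 ± 0.06, a difference that was not itself tested.

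The phenylalanine enzyme is a tetramer of both Farsa and Farsb chains, and the test called the mRNA of the beta chain higher and not that of the alpha chain. Farsb, the beta subunit (chr1:78417975-78488897), was at 27.1, 25.9 and 26 CPM in normoxic R26 cells, 24.3, 23.8 and 25.5 in R26 hypoxia and 39.3, 42.1 and 39.9 in HIF1a-ko hypoxia, a log2 fold change of 0.72 ± 0.05 with the Hif1a guide (adjusted p = 3.79e-06). Farsa (chr8:84856989-84869257) was at 67.7, 68.3 and 63.6, then 60.1, 55.1 and 57.3, then 63, 60.6 and 63.1 CPM, and its change of 0.12 ± 0.05 did not pass (adjusted p = 0.078). The Farsa to Farsb ratio, taken per kb of exons in each library, was 1.46 ± 0.0563, 1.35 ± 0.0658 and 0.89 ± 0.052 (SD, n = 3) in the normoxic, hypoxic and HIF1a-ko groups. All 3 HIF1a-ko values lay below every R26 value. The exact two-sided permutation test gave p = 0.1 against either R26 group, the smallest value that 3 against 3 libraries allow, and p = 0.2 between the R26 groups.

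Qars (chr9:108507706-108515941) was the cytosolic exception, at 146.8, 162.8 and 151 CPM in HIF1a-ko hypoxia, below its 3 values in R26 hypoxia. The log2 fold change was -0.24 ± 0.07 (adjusted p = 0.0159). The call was lost when R26 hypoxia 1 or 2 or HIF1a-ko hypoxia 1 or 3 was left out, with adjusted p of 0.000204 to 0.0681 over 16 alternatives. Dars (0.11 ± 0.05, adjusted p = 0.098), Farsa and Hars (0.06 ± 0.07, adjusted p = 0.513) did not pass. Dars was at 108, 116.4 and 119.8 CPM and overlapped R26 hypoxia.

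**Figure D3:**
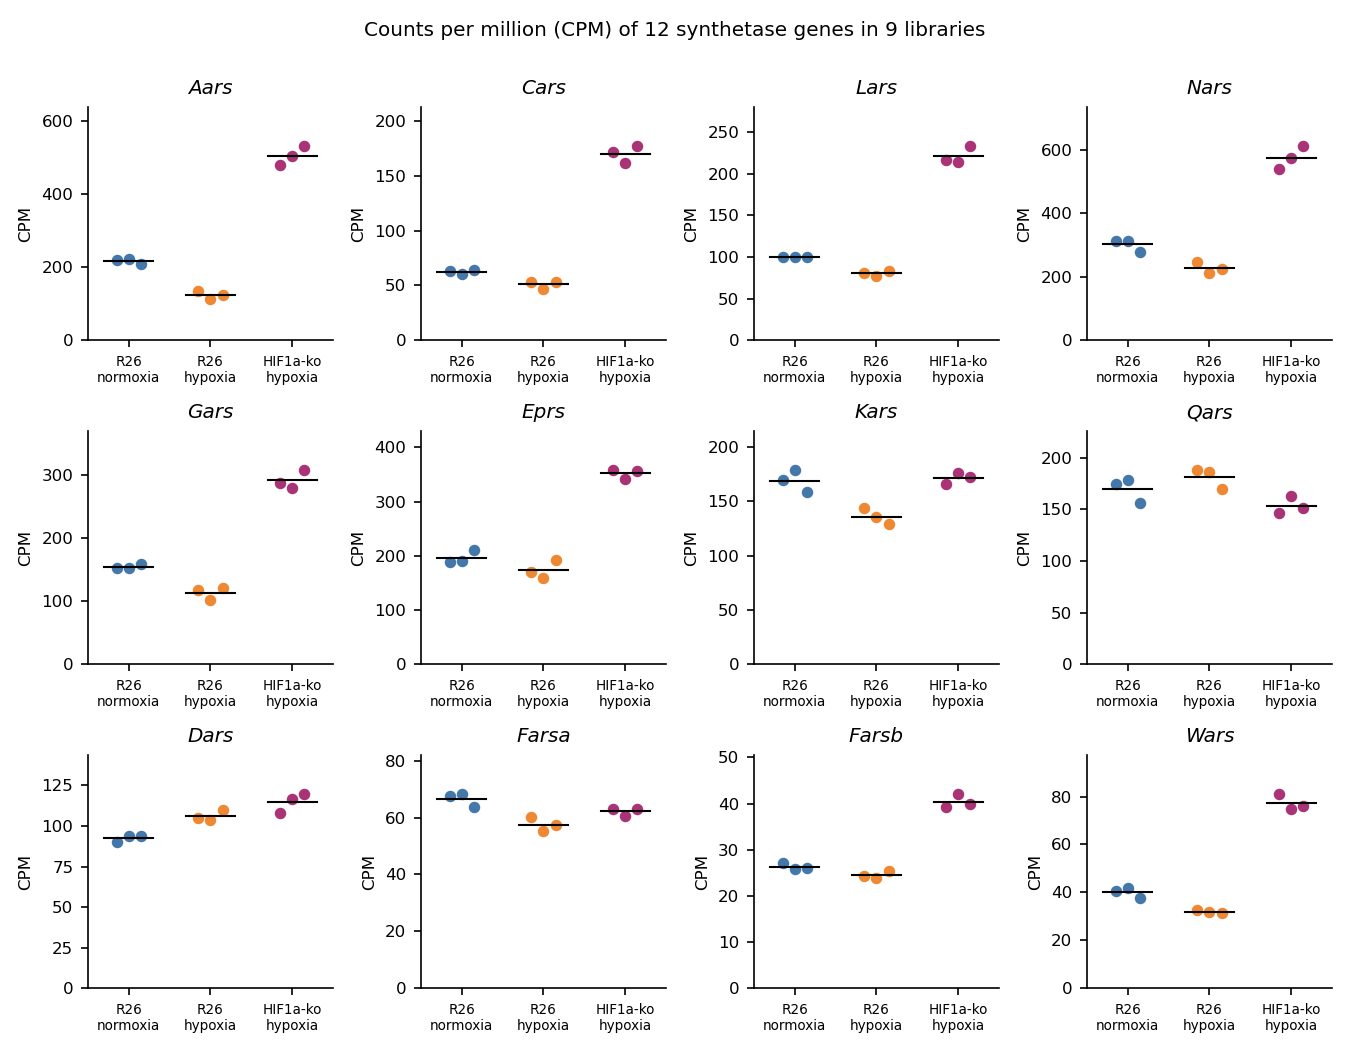
CPM in each of the 9 libraries for 12 cytosolic genes; points are libraries, black lines group means, and each panel has its own axis from 0. Aars, Cars, Lars, Nars, Gars, Eprs, Farsb and Wars are highest in all 3 HIF1a-ko libraries, while the groups lie closer together in Kars, Qars, Dars and Farsa.

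By subgroup, 13 of 13 amino acid response members rose, with a median of 1.33 and a range of 0.67 to 2.02. Of the other 7, 3 rose, 1 fell and 3 did not pass, with a median of 0.12. The response list was drawn with earlier results of these data known, so this split is no independent test. The lowest response member, Vars (0.67), lay below the highest of the others, Rars (0.76) and Farsb (0.72). In the multisynthetase complex 6 of 8 rose and 1 fell (median 0.89), and outside it 10 of 12 rose (median 1.19). Class I had 8 rises and 1 fall of 9 (median 1.29), and class II 7 rises of 10 (median 0.76). Enzymes held in the complex thus ranged from -0.24 (Qars) to 1.46 (Lars). Over all genes tested, 22% were called higher and 23.8% lower, and a subgroup count near these shares is no result about the subgroup.

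The called mitochondrial rises ran from 0.19 to 0.91. Mars2 (chr1:55237177-55248470) was at 6.26, 7.74 and 7.19 CPM in R26 hypoxia and 12.9, 13.7 and 13.4 in HIF1a-ko hypoxia, a log2 fold change of 0.91 ± 0.12 (adjusted p = 0.000173). Tars2 (chr3:95739976-95760206) was at 16.9, 15.9 and 18.6 against 28.8, 27.7 and 28.3, a change of 0.72 ± 0.08 (adjusted p = 7.05e-05). Neither gene overlapped between the groups.

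Wars2 was at 10.5, 10.1 and 12.6 CPM in R26 hypoxia and 17.2, 16.4 and 16.8 in HIF1a-ko hypoxia (0.60 ± 0.09). Rars2 was at 21.3, 24.1 and 22.8 CPM in HIF1a-ko hypoxia (0.52 ± 0.08), and Aars2 at 14.8, 11.7 and 14.2 against 19.1, 15.8 and 18.6 (0.40 ± 0.12). Nars2 (0.37), Pars2 (proline; 0.31) and Iars2 (0.19) also passed. The calls of Aars2, Nars2, Pars2 and Iars2 were lost in 3, 3, 13 and 6 of 16 alternatives. Of the sequence of Iars2, 37.2% is shared, mainly with Rab3gap2 on the opposite strand, which stood at 0.04 ± 0.05 and did not pass. Fars2 (chr13:36117412-36726280) fell, from 18.2, 18.6 and 15.8 CPM to 13.8, 14 and 13.4, a log2 fold change of -0.35 ± 0.07 (adjusted p = 0.00294). Yars2 (0.25), Sars2 (0.24), Ears2 (0.19), Cars2 (0.12), Hars2 (-0.10), Vars2 (-0.12) and Lars2 did not pass.

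The third comparison set HIF1a-ko hypoxia against R26 normoxia, where guide and oxygen differ together. Of the 20 cytosolic genes 16 were higher and 0 lower, with 4 not called and a median log2 fold change of 0.79, against 19.5% of all genes called higher and 21.9% lower. At an unadjusted p under 0.05 from edgeR, 0 cytosolic genes were lower, and DESeq2 also called 0. Of the 16 mitochondrial genes 5 were higher and 0 lower (median 0.13); Fars2 alone was lower at an unadjusted p (0.0257), and DESeq2 called 0. The largest cytosolic values were those of Cars (1.45 ± 0.06), Aars (1.22 ± 0.07), Mars (1.16 ± 0.08), Lars (1.15 ± 0.05) and Iars (1.12 ± 0.07).

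In R26 normoxia Cars stood at 62.9, 60.3 and 63.8 CPM, Mars at 85.6, 82.1 and 82.6, Lars at 100.5, 99.5 and 100.5 and Iars at 134.5, 129 and 133.8. Yars was at 59.5, 62.4 and 61.5 and Wars at 40.4, 41.9 and 37.7. All HIF1a-ko libraries lay above these values. All 13 response members were higher (median 0.95), and 3 of the other 7 (median 0.02): Farsb (0.62), Dars (0.31) and Rars (0.27). Over all genes tested 19.5% were called higher, and the limit on the response list given above holds here too. The 4 genes not called were Kars (0.02), Farsa (-0.10), Hars (-0.14) and Qars (-0.14).

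Of the mitochondrial genes called higher, Mars2, at 6.96, 8.5 and 9.21 CPM in R26 normoxia, changed by 0.69 ± 0.12. Tars2, at 18.4, 15.8 and 18.5, changed by 0.68 ± 0.08, and Aars2, at 10.6, 12.8 and 11.6, by 0.61 ± 0.12. Wars2, at 11.6, 11.8 and 13, changed by 0.47 ± 0.09, and Rars2 by 0.28 ± 0.08. Rars2 lost its call without R26 normoxia 1 or HIF1a-ko hypoxia 2 (adjusted p = 0.0518 and 0.0675, in a range of 0.00123 to 0.0675 over 16 alternatives). Fars2, at 15.5, 15.7 and 15.8 CPM in R26 normoxia, was at -0.19 and did not pass (adjusted p = 0.0599).

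Enzymes for the same amino acid were then set side by side in 16 pairs, Eprs being paired with both Ears2 and Pars2. In low oxygen the cytosolic log2 fold change was above the mitochondrial one in 4 of 16 pairs, with a median difference of -0.22. Lars with Lars2 is among the 4, at -0.32 against -1.33, and Lars2 was at 0.27 without R26 normoxia 1. With the Hif1a guide the cytosolic value was above in 16 of 16, with a median difference of 0.74, and against R26 normoxia in 13 of 16, with a median of 0.63. The widest gap against R26 normoxia, 1.91, was that of Lars with Lars2, where Lars2 went from -0.76 to 0.84 without R26 normoxia 1. Alanine and cysteine had the widest gaps with the Hif1a guide, 1.62 each: Aars 2.02 against Aars2 0.40, and Cars 1.74 against Cars2 0.12. Tyrosine and isoleucine followed, at 1.11 and 1.10.

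The Aars to Aars2 ratio, taken per kb of exons in each library, went from 9.56 ± 0.906 in R26 normoxia to 4.74 ± 0.258 in R26 hypoxia and 14.7 ± 1.75 in HIF1a-ko hypoxia, and that for Hars to Hars2 from 3.07 ± 0.258 to 2.54 ± 0.268 and 2.84 ± 0.0475 (SD, n = 3). Hars and Hars2 lie head to head on opposite strands of chromosome 18 and share 195 exon bases. Neither passed the test in any of the 3 comparisons.

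**Figure D4:**
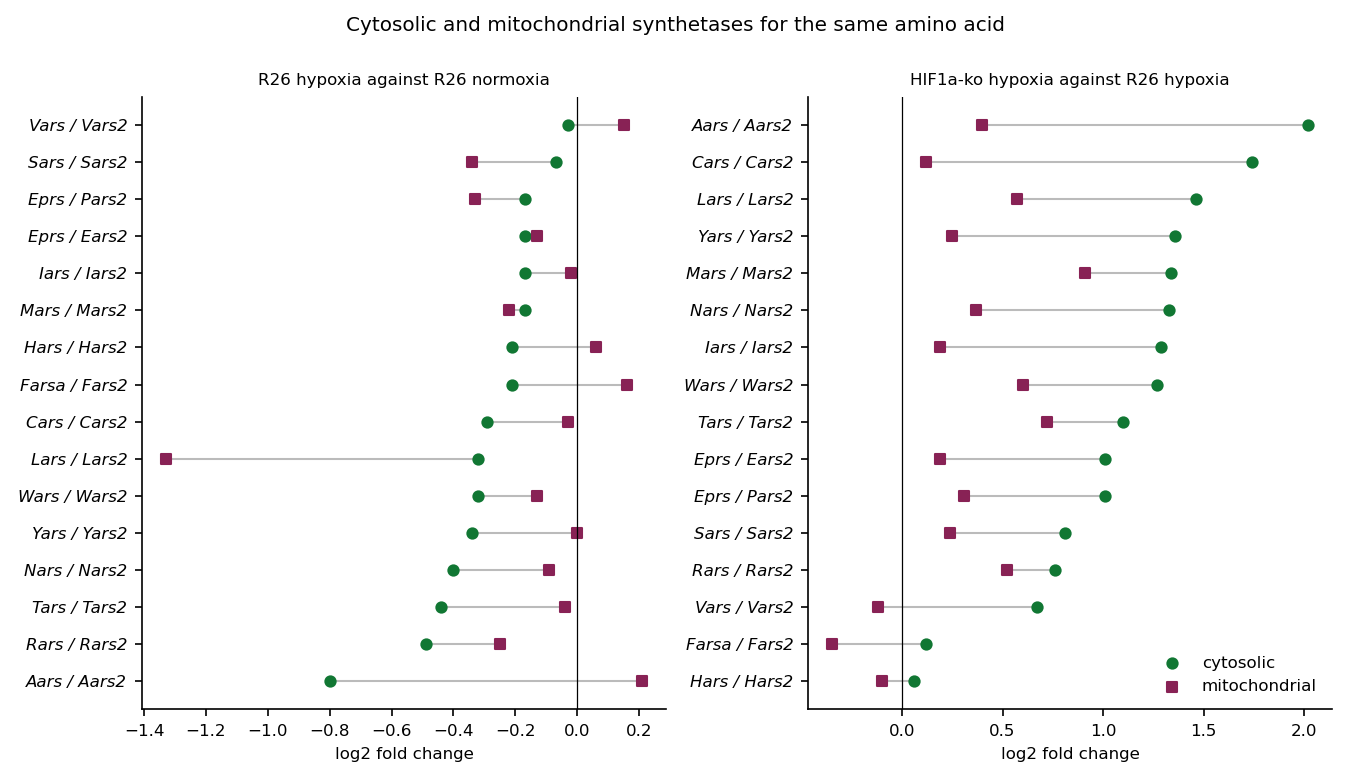
Log2 fold changes of the cytosolic (circles) and mitochondrial (squares) enzyme for each amino acid, joined by a line, in low oxygen (left) and with the Hif1a guide in low oxygen (right); each panel is sorted by the cytosolic value and has its own axis. Cytosolic values lie right of mitochondrial ones in 16 of 16 pairs in the right panel and in 4 of 16 in the left.

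Lars2, the mitochondrial leucine enzyme (chr9:123366927-123462666, plus strand), was not called in any comparison and varied most between replicates. It was at 766.1, 135.3 and 80.4 CPM in normoxic R26 cells, 188.4, 128.5 and 73 in R26 hypoxia and 165.9, 230.4 and 181.7 in HIF1a-ko hypoxia. R26 normoxia 1 alone stood apart. The log2 fold change in low oxygen was -1.33 ± 0.73 (adjusted p = 0.231), and 0.27 without R26 normoxia 1. Against R26 normoxia that of HIF1a-ko hypoxia was -0.76 ± 0.72 (adjusted p = 0.447), and 0.84 without that library. With the shallower libraries alone, which keep it, the low oxygen value was -1.49 and passed (adjusted p = 0.0323, in a range of 0.0323 to 0.715 over 16 alternatives).

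In the same library Gm42418, which RefSeq lists under a ribosomal RNA-related pseudogene on chromosome 17, stood at 7512.8 CPM, against 917.6 to 1537.3 in the other 8. Gm15564, an antisense RNA gene with which Lars2 shares 50-base stretches, was at 4.23 CPM there, against 0.293 to 1.33 elsewhere. Both genes were chosen after their values were seen, and their part in the Lars2 value was not tested. Cytosolic Lars showed no such split, at 100.5, 99.5 and 100.5 CPM in R26 normoxia. Because of Lars2, the sum of mitochondrial CPM and the median over the genes differ in sign against R26 normoxia: the log2 ratio of summed CPM was -0.24, and the median log2 fold change 0.13.

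**Figure D5:**
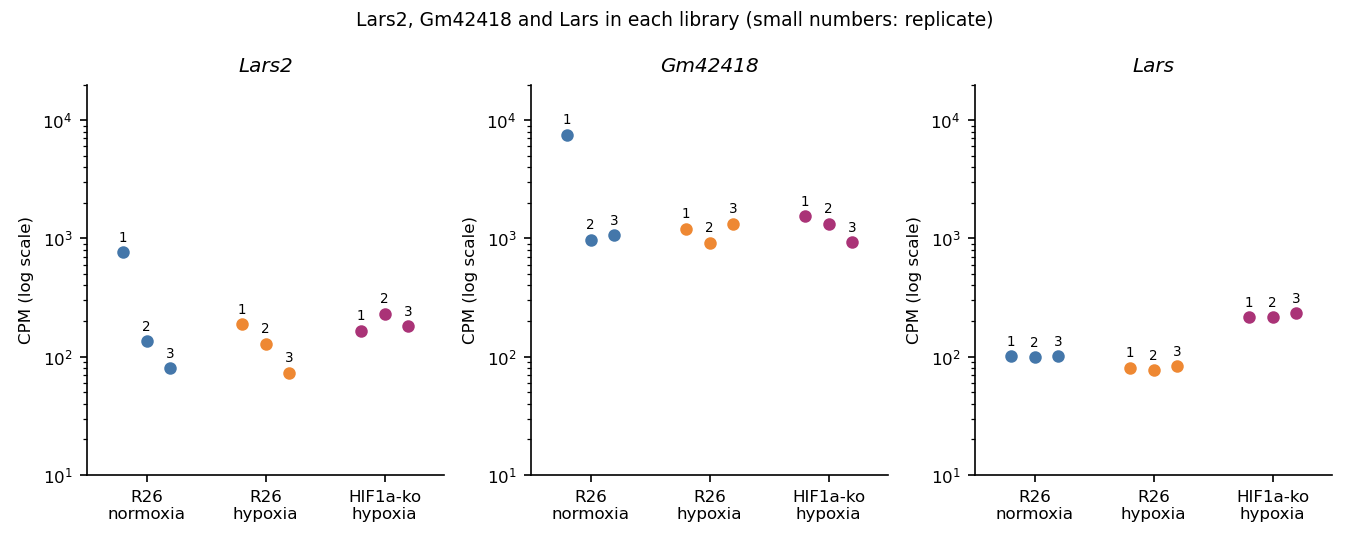
CPM of Lars2, Gm42418 and Lars in each library on a log axis, with the replicate number above each point. R26 normoxia 1 lies apart in Lars2 (766.1) and Gm42418 (7512.8) and not in Lars (100.5).

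Partners of the synthetases were described by lists. In low oxygen 12.8% of all genes tested were called higher and 12.4% lower, and with the Hif1a guide 22% and 23.8%. In lists this short, a count near these shares is no result about the list. Of the 3 scaffold and elongation factor partners of the complex, Aimp1 (-0.05), Aimp2 (0.15) and Eef1e1 (-0.00) did not pass in low oxygen. With the Hif1a guide Eef1e1 (0.55 ± 0.12) and Aimp1 (0.15 ± 0.05) rose, while Aimp2 was at 0.05 and did not pass. Of 10 genes with related roles in tRNA charging, 1 rose and 2 fell in low oxygen, and 4 rose with the Hif1a guide. Qrsl1, the catalytic subunit of the amidotransferase that makes mitochondrial glutaminyl-tRNA, had the largest values, -0.66 ± 0.13 (adjusted p = 0.00523) and 1.43 ± 0.13 (adjusted p = 1.83e-05). Its partner Gatc was at 0.23 ± 0.07 with the Hif1a guide (adjusted p = 0.0247), and Gatb at 0.23 ± 0.08 (adjusted p = 0.0525, not called). Dtd1, which removes D-amino acids from tRNA, fell by 0.37 in low oxygen and was 0.39 higher with the Hif1a guide. Tarsl2, another cytosolic threonine enzyme outside the symbol rule, rose by 0.22 with the guide.

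Of 17 genes of the integrated stress response, 1 rose and 4 fell in low oxygen (median -0.10), against 12.8% and 12.4% of all genes. With the Hif1a guide 11 rose and 1 fell (median 0.83), against 22% and 23.8% of all genes. Atf4, its central transcription factor, was at 190.8, 186.4 and 167.8 CPM in normoxic R26 cells, 179.1, 158 and 154.8 in R26 hypoxia and 373.5, 385.5 and 419.9 in HIF1a-ko hypoxia. Its log2 fold change was -0.15 ± 0.08 in low oxygen (adjusted p = 0.196, not called) and 1.26 ± 0.08 with the guide (adjusted p = 1.34e-06). The pseudokinase gene Trib3 (2.80 ± 0.11), Chac1, which degrades glutathione (2.77 ± 0.19), and Asns, which makes asparagine (2.75 ± 0.09), had the largest values with the guide. Asns also fell in low oxygen (-0.45 ± 0.09), as did Ddit3, Sesn2 and Eif2s1. The gene that fell with the guide was Cebpb (-0.87 ± 0.21, adjusted p = 0.00722). The kinases Eif2ak1, Eif2ak2, Eif2ak3 and Eif2ak4, the last of which encodes GCN2, had values of -0.24 to 0.06 with the guide and none passed.

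Of 6 cytosolic elongation factors 3 rose with the Hif1a guide (Eif5a 0.82, Eef1g 0.64, Eef1d 0.21), and Eef1a1 and Eef2, the most abundant, were at -0.07 and -0.05. Eif5a also fell in low oxygen, by 0.42. Of 9 mitochondrial translation factors 2 fell in low oxygen, Tsfm (-0.31) and Gfm1 (-0.26). With the guide 3 rose, Tsfm (0.54), Gfm1 (0.48) and Gfm2 (0.32), and Mtrf1l fell (-0.26). Over all genes tested, 12.4% were called lower in low oxygen, and 22% higher and 23.8% lower with the guide. Of the 3 genes of the MYC list, Myc rose with the guide (0.44 ± 0.08), Mxi1, which encodes a MAX-binding repressor and is a known HIF-1 target, fell (-1.55 ± 0.07), and Max was at -0.02.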

How the data were processed

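Libraries were made from poly-A RNA. The authors deposited unnormalized counts of reads for each Ensembl gene, in whole numbers. Tools named in the submitters' processing notes are STAR and featureCounts, beside bcl2fastq 2.17, Trimmomatic and DESeq2, with the build GRCm38; their settings, the annotation and the treatment of reads with several matches are not stated in these sources. Because no label names separate cultures within a group, a p-value here reflects the spread of these samples alone, and that spread may be technical. Identifiers were paired with GENCODE M21 symbols (49056 of 49315). Libraries of a group differed by more than sampling noise (chi-square over its degrees of freedom 6.18 to 63), and all 9 were counted as samples. In every group the value was lowest between the 2 shallower libraries (19.5, 8.75 and 6.18). It does not show that the libraries are separate cultures.

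All genes were tested together with edgeR 4.0.16 in R 4.3.3 (quasi-likelihood test, two-sided, TMM, filterByExpr, group as the only term, 18211 genes, Benjamini-Hochberg adjustment over them); called means an adjusted p under 0.05. CPM was computed from the counts with TMM factors, and CPM per kb uses the union of a gene's exons. The script was tested on simulated data for the first comparison, with changed genes drawn from all that passed the filter. It recovered 30.3%, 58.2% and 73.1% of genes changed by a log2 of 0.5, 1 and 2. A gene that did not pass may therefore still have changed. Alternatives used DESeq2 1.42.0 or its size factors, no filter, a replicate block, the 2 groups of a comparison alone, a depth term, the shallower libraries alone, each library left out, the longest coding transcript as length and summed CPM. The block and the 2-group fits have fewer genes.

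The members and the lists were chosen with earlier results of these data known. A further gene that fits the symbol rule is not reported here and enters no count, sum or pair of the members. Values in every library are given for the 5 called members of a compartment with the largest absolute change in each comparison, for called members against the majority, and for Eprs, Farsa, Farsb, Gars, Kars, Qars and Wars; up to 4 called genes of each other list are named, and further genes were named to complete small counts. Deviations from the group means correlated between same-numbered libraries by 0.48, 0.53 and 0.855 in the R26 groups. The main test used group alone, and a fit that treats these numbers as pairs was run as an alternative, the replicate block. The labels give no shared batch, the third pair is the deeper one, and the shallower libraries with different numbers correlated by 0.587 and 0.498, so that pairing by number and depth cannot be told apart.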

Additional observations from a re-analysis of the deposited data

How the results depend on the processing

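Of 1728 values of single synthetase genes under the alternatives, 1605 kept their direction and their side of the threshold, 42 lost a call and 53 gained one, and no called gene changed sign. Uncalled genes changed sign, without a call, in the other 28 values, of 10 genes. The limits are the small number of libraries, 3 per group, unequal depth, and the 1 library that sets the Lars2 value. The cause of the changes below was not tested.

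In low oxygen, cytosolic genes called higher numbered 2 with the replicate block (main value 1) and 0 to 1 with a library left out. Mitochondrial genes called higher numbered 1 with the block or with the shallower libraries alone (main value 0), and 0 to 1 with a library left out (1 without R26 hypoxia 3). Mitochondrial genes called lower numbered 0 without the filter or with the 2 groups alone, 2 with the block, 3 with the depth term or the shallower libraries, and 0 to 1 with a library left out. With the Hif1a guide against R26 hypoxia, cytosolic genes called lower numbered 0 to 1, and mitochondrial genes called higher 4 to 8, with a library left out (4 without R26 hypoxia 2, and 5 without R26 hypoxia 1 or HIF1a-ko hypoxia 1 or 3). Against R26 normoxia, cytosolic genes called lower numbered 2 with the depth term and 1 with the shallower libraries; mitochondrial genes called higher numbered 8 with DESeq2 size factors or the depth term (main value 5), and 5 to 7 with a library left out; those called lower numbered 1 with the depth term or the 2 groups alone, and 0 to 1 with a library left out. The count of cytosolic genes called higher with the Hif1a guide was 16 or 17 under every alternative run, in both comparisons.

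With the Hif1a guide the replicate block gave 16 higher and 1 lower cytosolic and 6 higher and 1 lower mitochondrial genes against R26 hypoxia, and 16 and 0, and 6 and 0, against R26 normoxia; Iars2 and Pars2 lost their calls in the former and Iars2 gained one in the latter, and it changed no other call of a member there. The numbers did not pair these groups (correlations of -0.656, 0.574 and -0.651, and of -0.616, 0.587 and -0.667). Over all genes in low oxygen, 3405 were higher and 3554 lower with the depth term, against 2328 and 2263. With the longest coding transcript as length, the cytosolic to mitochondrial ratio without Lars2 was 9.56 ± 0.336, 8.25 ± 0.389 and 13.6 ± 0.583 (SD, n = 3) in the normoxic, hypoxic and HIF1a-ko groups.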
